A study of Mus musculus with 3 samples.

Results

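Glycolysis and hypoxia response genes were a set of 36 genes of the 36835 with a level in the RNAseq table, chosen by name: 37 symbols were listed, of which Pkm2 and Pkm are the older and newer name of the same gene. The set covers the glucose transporters, the enzymes that split glucose to pyruvate, lactate dehydrogenases, lactate transporters, the oxygen-regulated factor HIF-1 alpha with its prolyl hydroxylases, and genes that this factor is known to switch on. The levels came from sorted cells of BALB/C mice carrying tumors of Renca, a renal cancer cell line grown in the kidney (in its Renca Ch+ L+ form by the study's account of the RNAseq), in a study that asked whether macrophages of the tumor express Foxp3. By their labels, library M1 was made from type-1 macrophages (F4/80 int, CD11b hi) and library M2 from type-2 macrophages (F4/80 hi, CD11b int) of 30 pooled tumors. Library CD4 was labelled as TCRb+/CD4+ T cells, from 4 pooled spleens of tumor-bearing mice by the extraction protocol, although another label of that sample names the tumor as their origin. The labels give both day 14 and day 16 for the harvest. All mice bore tumors, the labels name no treatment, and each group was 1 library of pooled animals, so that no difference has a replicate check and no test was possible.

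Glycolysis converts glucose to pyruvate in the cytosol with a small yield of ATP, and lactate dehydrogenase turns pyruvate to lactate so that the pathway can go on without oxygen. When oxygen is low, the prolyl hydroxylases no longer mark HIF-1 alpha for destruction, and the factor binds with its partner ARNT at short sequences with the core ACGTG or GCGTG near glycolytic and other genes. Activated macrophages and dividing T cells are both known for high glycolysis, and solid tumors are known for regions of low oxygen.

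The labels were first checked against cell type markers, and 2 of the 3 libraries went against them. Cd3e, a chain of the CD3 complex of T cells, was 126 FPKM in the column labelled M2, 0.131 in M1 and 0.141 in CD4, and Trbc1, a constant region of the T cell receptor, was 434, 0.400 and 0.329 FPKM in the same order. All 13 T cell markers with a level were highest in the library labelled M2, with summed levels of 2019 FPKM there, 2.90 in M1 and 4.44 in CD4, and Cd247 was listed at 0 in M1 and CD4. All 12 macrophage markers were lower in the library labelled M2 than in both others, with sums of 648 FPKM in M2, 8300 in M1 and 12800 in CD4, and none was at 0. Csf1r, the receptor for the macrophage growth factor CSF1, was 279 FPKM in M1, 15.3 in M2 and 519 in CD4, Emr1, which encodes F4/80, was 45.3, 9.16 and 215, and Itgam, which encodes CD11b, was 299, 14.7 and 201. The column labelled M2 thus held T cell markers at far higher and macrophage markers at lower levels than both others, and the one labelled CD4 held T cell markers near 0. Groups follow the labels here, "M1", "M2" and "CD4" stand for the library with that label and not for a cell type, and no direction between libraries should be read as one between the labelled cell types. Every comparison holds at least one of these 2 libraries, so none could be made without them. Values within library M1 rest on neither label, but a row was kept only where all 3 columns held a value.

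Other cell types also differed between the libraries, and their part in the results was not tested. Of the erythroid list, 8 genes summed to 629 FPKM in M2, 105 in M1 and 103 in CD4, with Alas2 at 0 in M1 and CD4, Epb4.2 at 0 in M1 and Klf1 at 0 in CD4. The 5 B cell genes summed to 47.0 FPKM in M2, 0.405 in M1 and 0.492 in CD4, with Pax5 at 0 in all 3 and Cd79b at 0 in M2. Neutrophil and monocyte genes (10) summed to 138 FPKM in M1, 242 in M2 and 38.8 in CD4, with Ly6c2 and Ly6g at 0 in M2 and Camp at 0 in M1 and CD4. The genes of this list went both ways: S100a8, S100a9, Ngp and Ltf were highest in M2, while Ly6c2 and Csf3r were lowest there. For kidney epithelial and renal tumor genes (12) the sums were 122 FPKM in M1, 205 in M2 and 98.1 in CD4, with Umod and Pax2 at 0 in M1. Of the 9 with a mean of at least 1 FPKM, 2 (Cdh1 and Epcam) were highest in M1, 6 in M2 and 1 in CD4. Cdh1 was 48.2 FPKM in M1, 6.69 in M2 and 3.84 in CD4. For fibroblast and endothelial genes (7) the sums were 9.31, 44.7 and 32.3 FPKM, with none at 0. Pecam1 alone gave 35.0 FPKM of the last list's sum in M2, and Col1a1, Col1a2 and Col3a1 were lower in M2 (2.02, 3.15 and 3.59 FPKM) than in CD4 (7.96, 9.87 and 10.8). In bulk RNA, fewer cells of a type and less RNA per cell cannot be told apart.

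The values are FPKM, a unit corrected for transcript length and library size, so that levels of different genes can be compared per length. A gene's level is the sum over its transcripts. Depth is not in the table and was estimated from the lowest values as 61100000 fragments for M1, 59900000 for M2 and 72900000 for CD4, at which 1 FPKM on a transcript of 2000 bases is 122, 120 and 146 fragments. A level listed at 0 may be a failed estimate. This was looked at in protein-coding genes with at least 10 FPKM in both other libraries. Of these, 21 of 3916 were listed at 0 in M1, 69 of 4425 in M2 and 30 of 3943 in CD4. No ratio is given against a level of 0. Many glycolytic genes have processed pseudogenes with near-identical sequence, so their levels are uncertain by the reads these share.

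Sequence upstream of the genes is shown first, because HIF-1, a factor with a known core sequence, binds near glycolytic and other genes. The set was chosen by name, and not each member need be its target. RefSeq sequence (build GRCm38.p6) of the 250 bases before each start site was found for 34 of the 36 genes, in 47 windows; Ndrg1 and Slc2a3 were not matched. ACGTG was found on either strand in 20 of these 34 genes, 58.8%, beside 18.5% of all 27025 genes with a window. GCGTG was found in 22 of the 34, 64.7%, beside 30.9% of all genes. CACGTG, an E-box to which MYC and other factors bind and which holds ACGTG on both strands, was found in 6 of the 34, 17.6%, beside 6.86%. A gene with several windows has more places for a match. Counted per window, ACGTG was in 48.9% of the members' windows, GCGTG in 55.3% and CACGTG in 12.8%. Over all 32851 windows these shares were 16.6%, 28.2% and 6.02%. The median GC content of the windows was 61.6% for these genes and 52.4% over all windows, and its part in the higher shares was not tested. A match is a description of letters and does not show binding.

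Of the genes with ACGTG, 6 are printed because their levels carry the results below: a lactate dehydrogenase, a kinase and a mutase with the levels of the main pathway, and the glucose transporter, lactate transporter and hydroxylase with large gaps between libraries. Each runs 5′ to 3′ on the strand of the gene and lies before its start site, and capitals mark 1 match to ACGTG or to its reverse complement CACGT.
Ldha, chr7:46845743-46845801, plus strand: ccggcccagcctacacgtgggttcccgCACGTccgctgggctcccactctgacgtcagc
Pgk1, chrX:106186923-106186981, plus strand: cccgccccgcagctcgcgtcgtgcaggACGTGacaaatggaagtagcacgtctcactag
Pgam1, chr19:41911730-41911788, plus strand: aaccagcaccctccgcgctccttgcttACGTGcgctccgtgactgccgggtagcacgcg
Slc2a1, chr4:119108682-119108740, plus strand: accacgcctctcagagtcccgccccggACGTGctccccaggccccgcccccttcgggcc
Slc16a3, chr11:120949013-120949066, plus strand: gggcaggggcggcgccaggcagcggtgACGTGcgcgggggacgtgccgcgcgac
Egln3, chr12:54204072-54204124, minus strand: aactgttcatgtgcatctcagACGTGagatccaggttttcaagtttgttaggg
Ldha held 5 matches over its windows, of which CACGTG gave 2 pairs, Pgk1 and Slc16a3 held 2 each, and the other 3 held 1 each. In Tpi1, Gpi1 and Eno2 neither core was found in this window.

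Over the whole set, levels were high in each library. The median level of members above 0 was 24.2 FPKM in M1, 19.8 in M2 and 22.2 in CD4, and their median place among all genes above 0 in the same library was percentile 85.6, 83.7 and 84.4. Library M1 held the highest level of 23 of the 36 genes, M2 of 11 and CD4 of 2, while over all 11859 genes with a mean of at least 1 FPKM the shares were 27.8%, 45.97% and 26.2%. Counts of 23, 11 and 2 were also found after either rescaling of the libraries, and 24, 8 and 4 when all rows of the table were added up. No member was listed at 0 in M1, 2 were in M2 (Slc16a3, Ankrd37) and 4 in CD4 (Slc2a3, Tpi1, Pfkp, Car9), so that 30 were above 0 throughout. The plot of levels shows the set ordered by role.

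**Figure D1:**
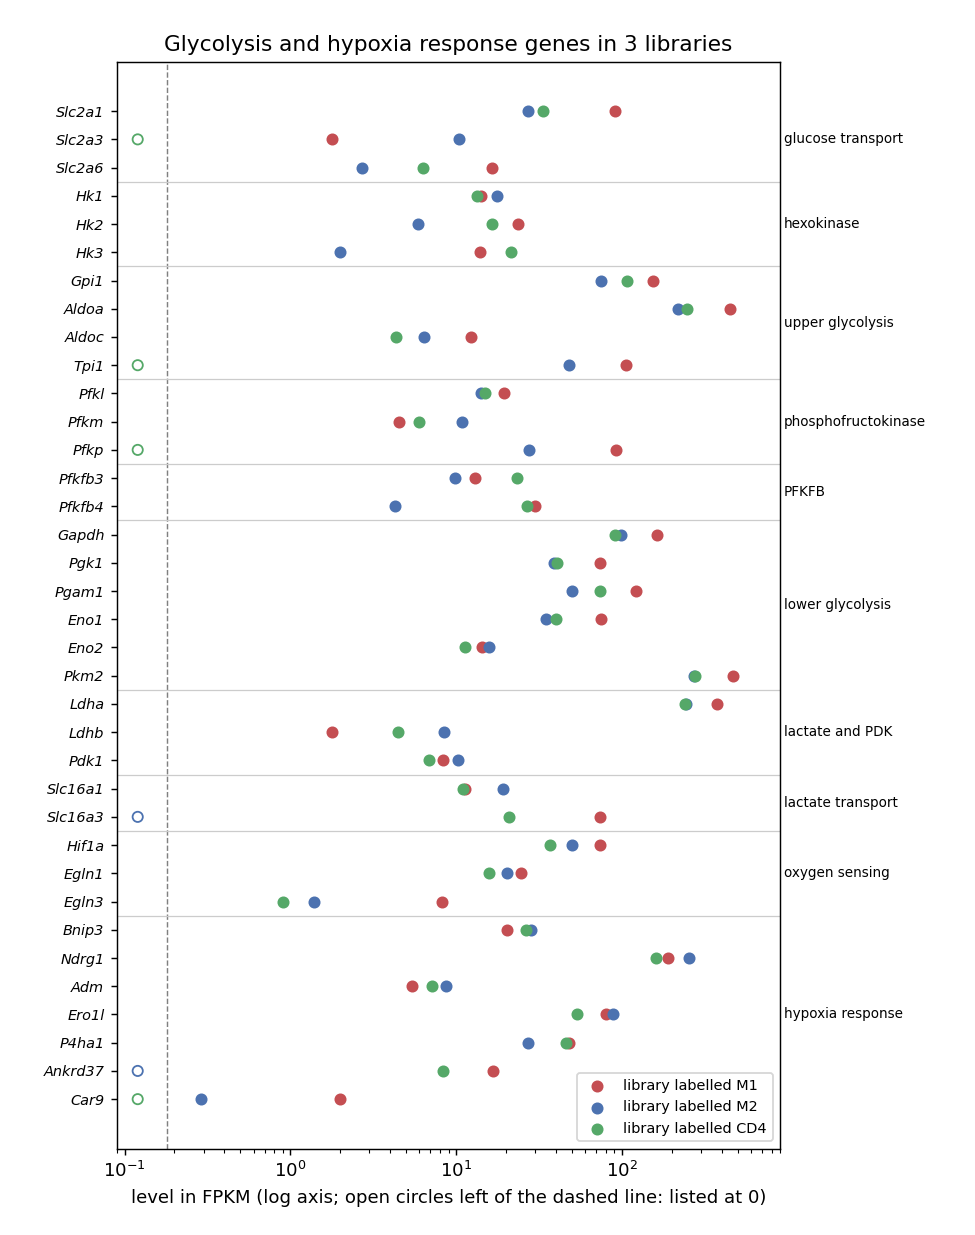
Level of each gene in FPKM (log axis) in the libraries labelled M1 (red), M2 (blue) and CD4 (green), 1 library each and no error bar. Open circles left of the dashed line were listed at 0. Red points lie farthest right for 23 of the 36 genes, and Aldoa, Pkm2 and Ldha lie between 218 and 468 FPKM in each library.

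The glucose transporters bring glucose into the cell. Slc2a1 (ENSMUSG00000028645, chromosome 4, 118781316 to 118809935 on NCBIM37), the GLUT1 carrier and a HIF-1 target, was 91.1 FPKM in M1, 27.04 in M2 and 33.5 in CD4. Its level in M1 was 3.37 times that in M2 and 2.72 times that in CD4, while M2 and CD4 were close. Slc2a3, the GLUT3 carrier of neurons and lymphocytes, was in contrast highest in M2, with 10.4 FPKM beside 1.78 in M1, and was listed at 0 in CD4, where rows not used held 2.70 FPKM. Slc2a6, a carrier of lysosomes in macrophages, was 16.6 FPKM in M1, 2.72 in M2 and 6.34 in CD4, which is 6.10 times higher in M1 than in M2. Within each library Slc2a1 took most of the summed level of these 3 carriers, 83.2% in M1, 67.3% in M2 and 84.1% in CD4. Slc2a3 took 25.9% in M2 and 1.63% in M1.

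Hexokinases trap glucose in the cell as glucose 6-phosphate, and the 3 libraries each had another leading form. Hk1, the broadly used form bound to mitochondria, was 14.1 FPKM in M1, 17.6 in M2 and 13.3 in CD4 over the rows used, and 24.5, 33.5 and 13.3 with all rows added up, which puts M2 over 2-fold above CD4. Hk2, the inducible form, was 23.7, 5.86 and 16.6 FPKM in the same order, 4.05 times higher in M1 than in M2. Hk3 (ENSMUSG00000025877, chromosome 13, 55107346 to 55122746), the form of myeloid cells, was 14.0, 1.998 and 21.3 FPKM. M2 was thus lowest for both Hk2 and Hk3, and the ratio of CD4 to M2 was 10.7 for Hk3 and 2.83 for Hk2. In shares of the family, Hk1 held 69.1% in M2, Hk2 held 45.8% in M1 and Hk3 held 41.6% in CD4. With all rows added up, Hk1 held 39.4% and Hk2 38.1% in M1, so that the lead of Hk2 there depends on which rows are used.

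Phosphofructokinase makes fructose 1,6-bisphosphate at the main point of control of the pathway. Pfkp, the platelet form, was 92.7 FPKM in M1 and 27.4 in M2 and was listed at 0 in CD4, and rows not used held a further 31.0 FPKM in M2. The muscle form Pfkm was 4.52 FPKM in M1, 10.8 in M2 and 6.003 in CD4, 2.39 times higher in M2 than in M1. Pfkl, the liver form, was similar in all 3 at 19.6, 14.1 and 14.9 FPKM. Pfkp made up 79.4% of the family in M1 and 52.4% in M2, and Pfkl 71.2% in CD4, a share that rests on the level of 0 for Pfkp. With all rows added up Pfkp was 98.6 FPKM in M1 and 58.4 in M2, no longer 2-fold apart. The enzymes PFKFB3 and PFKFB4 make and break fructose 2,6-bisphosphate, which activates phosphofructokinase. Pfkfb3 was 13.0 FPKM in M1, 9.91 in M2 and 23.2 in CD4, and with Hk3 it was one of the 2 members highest in CD4. Pfkfb4 (ENSMUSG00000025648, chromosome 9, 108893947 to 108934737) was 30.0, 4.28 and 26.6 FPKM, 7.004 times higher in M1 than in M2 and 6.21 times higher in CD4 than in M2. The transcript Pfkfb4-005, annotated as processed and not coding, held 75.6% of the gene's level in M1, 49.2% in M2 and 77.7% in CD4. Over coding transcripts alone the log2 difference shrank from -2.55 to -1.39 for M2 minus M1 and from -2.39 to -1.13 for M2 minus CD4. The share of Pfkfb4 in the pair was 69.7% in M1, 30.2% in M2 and 53.5% in CD4, and 36.0%, 18.0% and 20.4% over coding transcripts alone.

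**Figure D2:**
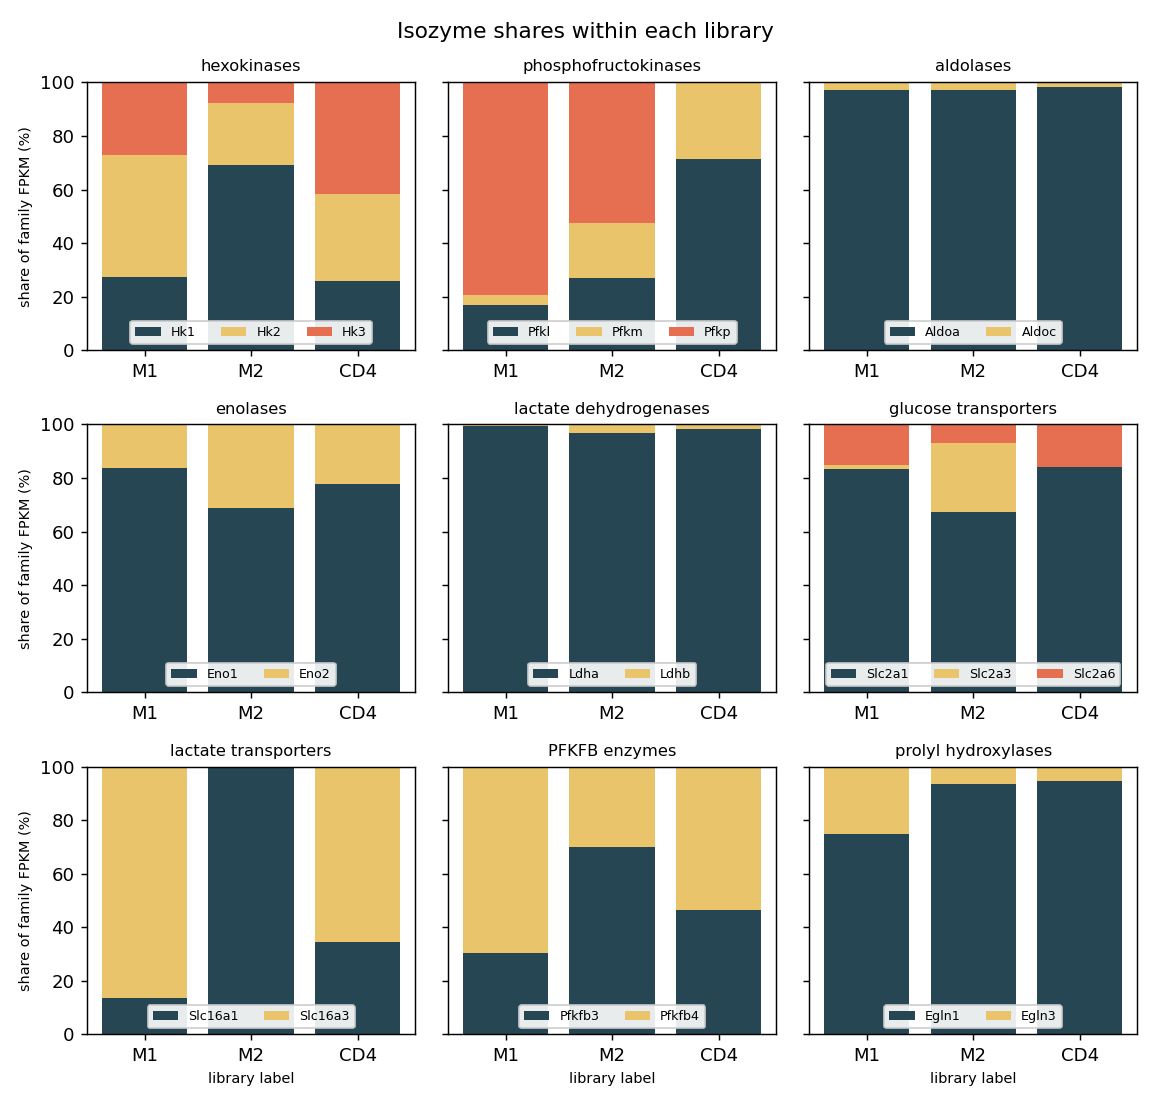
Share of the summed FPKM of each enzyme or transporter family (vertical axis, percent) taken by each gene in the libraries labelled M1, M2 and CD4, 1 library each. Families hold members of the set alone. Hk1 fills 69.1% of the hexokinase bar in M2 and 27.2% in M1, while Ldha and Aldoa fill at least 96.7% in each library. The absence of Pfkp and Slc2a3 in CD4 and of Slc16a3 in M2 rests on levels listed at 0.

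The remaining enzymes of the upper pathway were all highest in M1. Gpi1, which isomerises glucose 6-phosphate, was 154 FPKM in M1, 75.3 in M2 and 107 in CD4, and Aldoa, the main aldolase, was 448, 218 and 248. Aldoc, the aldolase of brain, was 12.3, 6.41 and 4.33 FPKM. Tpi1, which interconverts the triose phosphates, was 106 FPKM in M1 and 48.1 in M2 and was listed at 0 in CD4. A housekeeping gene at 0 may be a failed estimate, and that 0 is not read here as absence. Aldoa held 97.3% of the summed Aldoa and Aldoc level in M1, 97.2% in M2 and 98.3% in CD4.

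Of the 6 genes for the lower pathway, 5 were highest in M1. Gapdh, the dehydrogenase step, was 163 FPKM in M1, 99.0 in M2 and 90.9 in CD4, all from the transcript Gapdh-006 of 565 bases, annotated as a retained intron, so that its level is no measure of the coding transcript. Pgk1, the first step that makes ATP, was 73.8, 38.7 and 40.6 FPKM, Pgam1, a mutase, was 122, 50.3 and 73.8, and Eno1, the broad enolase, was 74.4, 34.9 and 39.8. Levels in M1 were 1.65 (Pgam1) to 1.87 (Eno1) times those in CD4 among these 4 genes, and 1.65 (Gapdh) to 2.42 (Pgam1) times those in M2. Eno2, the neuronal enolase, departed from this with 14.4 FPKM in M1, 15.7 in M2 and 11.3 in CD4. Of the summed Eno1 and Eno2 level, Eno2 held 31.0% in M2, 16.2% in M1 and 22.1% in CD4. Over coding transcripts alone it held 18.7%, 7.68% and 10.3%, since retained-intron transcripts carry much of its level. Eno3, another enolase outside the set and not in these shares, was 5.68 FPKM in M1, 12.4 in M2 and 6.76 in CD4.

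Pkm2 (ENSMUSG00000032294, chromosome 9, 59504383 to 59527182), the pyruvate kinase of the last step, was 468 FPKM in M1, 272 in M2 and 276 in CD4, the highest of all members in each library. This gene makes 2 forms of the enzyme by using either of 2 neighbouring exons: the upstream one gives the muscle form and the downstream one the form of growing cells and leukocytes. In the annotation of NCBIM37 each is exon 9 of its transcript and 167 bases long. They are printed because they are what separates the 2 transcripts with a level, 5′ to 3′, and capitals mark the bases at which they differ, with 103 bases (61.7%) the same.
ENSMUST00000163694, chr9:59522836-59523002, plus strand: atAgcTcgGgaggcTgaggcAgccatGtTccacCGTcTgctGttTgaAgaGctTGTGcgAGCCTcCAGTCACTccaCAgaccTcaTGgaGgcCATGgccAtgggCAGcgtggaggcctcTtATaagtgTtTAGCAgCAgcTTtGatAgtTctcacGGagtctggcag
ENSMUST00000034834, chr9:59523375-59523541, plus strand: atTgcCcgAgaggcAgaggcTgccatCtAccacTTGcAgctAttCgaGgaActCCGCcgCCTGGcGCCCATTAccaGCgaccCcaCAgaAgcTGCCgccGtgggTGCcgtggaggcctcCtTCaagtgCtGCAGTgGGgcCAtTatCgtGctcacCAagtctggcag
Transcript ENSMUST00000034834, with the downstream exon, held 62.9% of the gene's level in M1, 62.8% in M2 and 61.2% in CD4, and ENSMUST00000163694, with the upstream exon, held 37.1%, 37.2% and 38.8%. The split between them thus differed by under 2 percentage points between libraries, with the caveat that the estimate was shared out by a model from reads of 51 bases.

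Lactate dehydrogenase works in both directions, with LDHA favouring lactate and LDHB pyruvate. Ldha was 376 FPKM in M1, 244 in M2 and 239 in CD4. Ldhb (ENSMUSG00000030246, chromosome 6, 142438769 to 142456477), the heart form, ran the other way, with 1.78 FPKM in M1, 8.43 in M2 and 4.44 in CD4, 4.74 times higher in M2 than in M1. Rows not used held a further 10.1 FPKM of Ldhb in M1 and 4.72 in CD4, and with them M2 was lower than M1 by a log2 difference of -0.45, so the order of Ldhb levels depends on the rows. By either reading Ldha dominated, with 99.5% of the pair in M1, 96.7% in M2 and 98.2% in CD4 over the rows used. Pdk1, a kinase that turns off pyruvate dehydrogenase and is a HIF-1 target, was 8.37, 10.3 and 6.87 FPKM and so within 2-fold. Of the carriers that move lactate across the membrane, Slc16a1 (MCT1) was 11.4 FPKM in M1, 19.1 in M2 and 11.1 in CD4. Slc16a3 (MCT4, ENSMUSG00000025161, chromosome 11, 120809794 to 120822182), the export carrier of glycolytic cells, was 73.5 FPKM in M1 and 20.9 in CD4, 3.52 times higher in M1, and was listed at 0 in M2. It held 86.6% of the pair in M1 and 65.3% in CD4.

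Among the oxygen sensors, Hif1a was 74.1 FPKM in M1, 49.9 in M2 and 36.7 in CD4, from the coding transcripts Hif1a-001 and Hif1a-003. HIF-1 alpha is regulated mainly by the stability of its protein, which these data do not measure. Egln1, the main oxygen-sensing hydroxylase PHD2, was 24.7, 20.4 and 15.8 FPKM. Egln3 (PHD3, ENSMUSG00000035105, chromosome 12, 55279968 to 55304847), itself switched on by HIF, was 8.27 FPKM in M1, 1.39 in M2 and 0.902 in CD4. The level in M1 was 5.93 times that in M2 and 9.17 times that in CD4, the largest ratio between M1 and CD4 in the set among genes above 0 in both. Egln3 held 25.1% of the summed Egln1 and Egln3 level in M1, 6.40% in M2 and 5.40% in CD4.

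Among the 7 other hypoxia response genes the order of the libraries was mixed, and M2 held the highest level of 4 of them. Bnip3, a mitochondrial protein of mitophagy, was 20.2 FPKM in M1, 28.3 in M2 and 26.3 in CD4, although rows not used held a further 28.4 FPKM in M1, which makes M1 the highest. Ndrg1, a stress-induced cytosolic protein, was 189, 254 and 161 FPKM, Adm, the precursor of the vessel-dilating peptide adrenomedullin, was 5.40, 8.71 and 7.16, and Ero1l, an oxidase of the endoplasmic reticulum, was 79.8, 88.1 and 53.6. None of these 4 differed 2-fold between any libraries. P4ha1, a subunit of the hydroxylase that modifies collagen, was 47.9 FPKM in M1, 27.1 in M2 and 45.9 in CD4. Ankrd37, a small ankyrin repeat protein, was 16.7 FPKM in M1 and 8.31 in CD4 and was listed at 0 in M2. Car9, the carbonic anhydrase of hypoxic tumor cells, was near the floor, at 1.99 FPKM in M1 and 0.288 in M2, and listed at 0 in CD4, where rows not used held 2.61 FPKM. With a mean of 0.761 FPKM it was the only member under the minimum of 1 FPKM. It is left out of the counts that follow, except with all rows added up or with no minimum.

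For the comparisons, a gene counted as 2-fold apart when log2(FPKM + 1) differed by at least 1, a scale that understates the ratio of low genes. The main comparisons were over the 35 members that passed the minimum. Between M2 and M1, 14 members were at least 2-fold lower in M2, beside 14.4% of all genes, and 3 were at least 2-fold higher, beside 15.5% of all genes. The 14 were Slc2a1, Slc2a6, Hk2, Hk3, Gpi1, Aldoa, Tpi1, Pfkp, Pfkfb4, Pgam1, Eno1, Slc16a3, Egln3 and Ankrd37, and the 3 were Slc2a3, Pfkm and Ldhb. With Slc16a3 and Ankrd37 set aside, which were listed at 0, 12 of 33 members were lower, beside 13% of genes above 0 in both libraries, and 3 were higher, beside 12.9%. The median log2 difference of the members was -0.78, beside 0.07 over all genes. In M2, 24 of 35 members were lower, while 46.7% of all genes were not higher there. Gpi1, Aldoa, Eno1 and Tpi1 lay just past the 2-fold line, at -1.02, -1.03, -1.07 and -1.12, and none of these 4 passed it after scaling to equal coding totals (-0.77, -0.78, -0.82 and -0.88). With all rows added up, the calls for Pfkp (-0.75) and Gpi1 (-0.98) were lost, and Ldhb, among the 3 higher members, turned to -0.45.

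Between CD4 and M1, 8 members were at least 2-fold lower in CD4, beside 6.43% of all genes, and 0 were higher, beside 6.14%. These were Slc2a1, Slc2a3, Slc2a6, Aldoc, Tpi1, Pfkp, Slc16a3 and Egln3. Without the 3 of them listed at 0 in CD4, 5 of 32 members were lower, beside 5.16% of genes above 0 in both, and 0 were higher, beside 4.74%. The median difference was -0.61, beside -0.01 over all genes. In CD4, 29 of 35 members were lower, among them every member of the lower pathway, while 52.6% of all genes were not higher there. Both libraries carried macrophage markers at levels well over those of M2. Hif1a lay just inside the line at -0.99, and Ldhb on the other side at 0.97. By its single highest transcript Slc16a3 was no longer past the line (-0.83).

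Between M2 and CD4, 3 members were at least 2-fold higher in M2, beside 15.9% of all genes, and 6 were lower, beside 15.2%. The 3 higher genes (Slc2a3, Tpi1 and Pfkp) were each listed at 0 in CD4. After setting aside genes at 0, 0 of 30 were higher, beside 13.3% of genes above 0 in both, and 4 were lower, beside 13.9%, a share of members close to that of all genes. These 4 were Hk2, Hk3, Pfkfb3 and Pfkfb4, of which Pfkfb3 was no longer past the line with all rows added up (-0.55) or after scaling to coding totals (-0.91). With all rows added up, Car9 entered the counts. Of 32 members above 0 in both, 2 were higher, Slc2a3 (2.08) and Hk1 (1.27). The 4 lower were Hk2 (-1.36), Hk3 (-2.68), Pfkfb4 (-2.69) and Car9 (-1.48). Scaled to equal totals over protein-coding genes, 4 members were 2-fold higher and 5 lower, while the median of all genes moved to 0.32. The shares of all genes past the line are not given for these 2 settings, so their counts describe the members alone. The median difference of the members was 0.11, beside 0.09 over all genes. In M2, 19 of 35 members were higher, beside 54.4% of all genes, so the members were close to all genes here. Differences for Gapdh, Pgk1, Eno1, Pkm2, Ldha and Aldoa lay between -0.18 and 0.12 on the log2 scale, and the direction for all but Gapdh turned with a rescaling of the libraries.

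**Figure D3:**
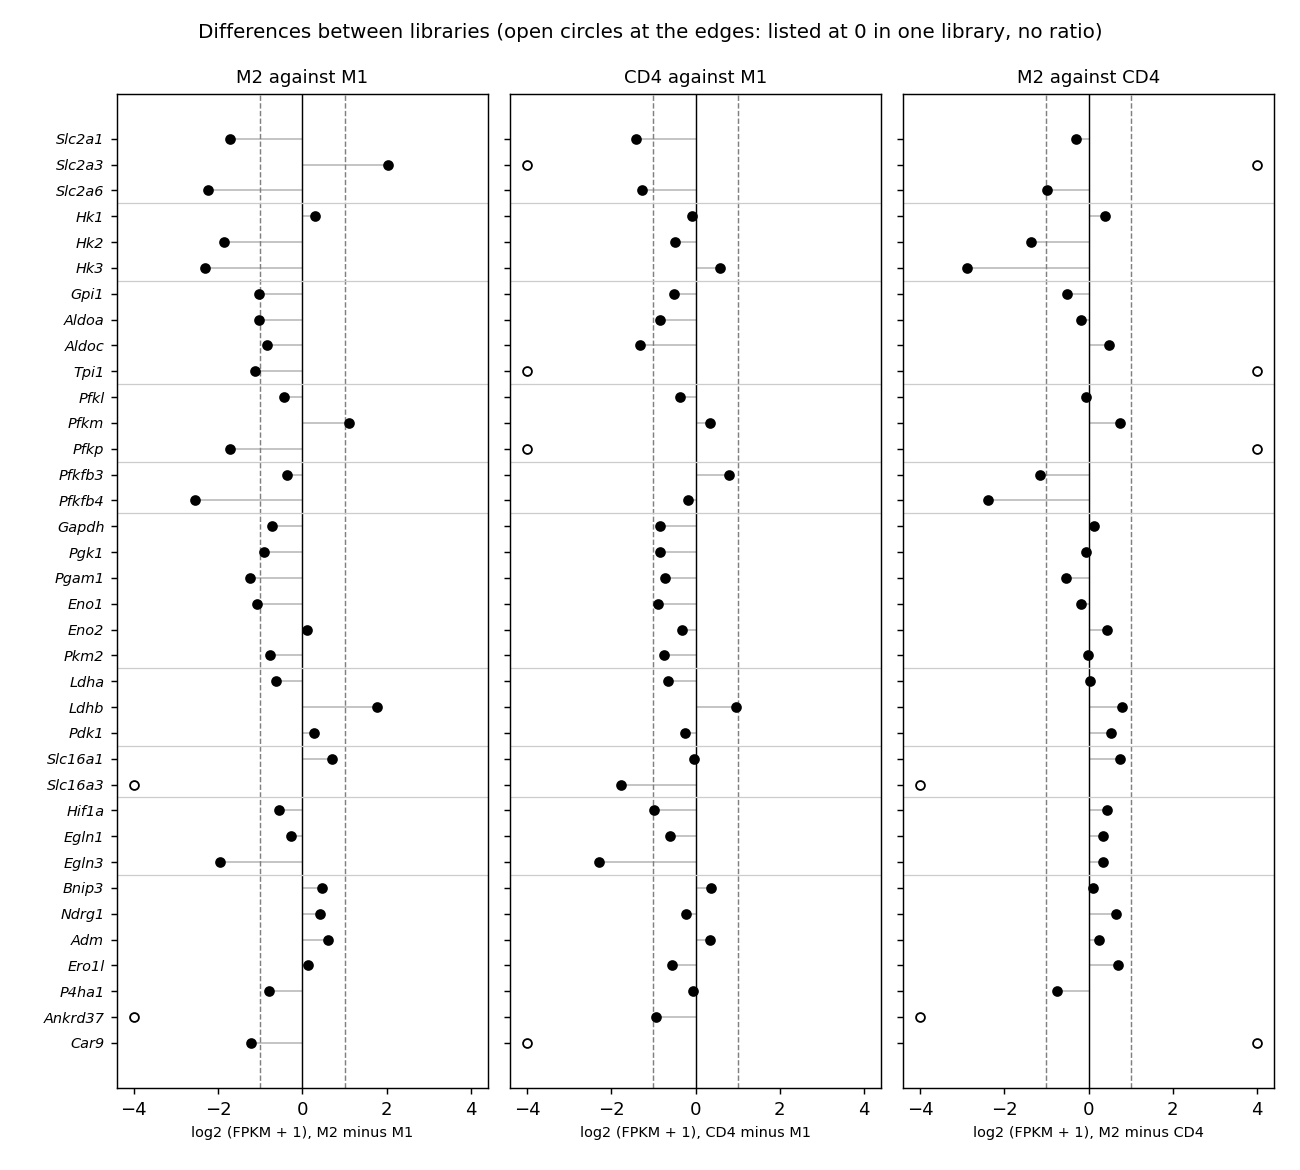
Difference in log2(FPKM + 1) between libraries for each gene, from left to right M2 minus M1, CD4 minus M1 and M2 minus CD4, with dashed lines at 2-fold. Open circles at the edges mark genes listed at 0 in one of the libraries, for which no ratio is given. The left and middle panels lean to the left, towards lower levels than in M1, and in the right panel most filled points lie between the dashed lines.

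The same differences can be set beside those of all genes. All 3 comparisons share libraries pairwise, so that a high level in M1 enters both comparisons with M1. The shift of the members' median from that of all genes was -0.85 for M2 minus M1, -0.61 for CD4 minus M1 and 0.02 for M2 minus CD4 on the log2 scale. After scaling to equal coding totals it was -0.82, -0.61 and 0.04, and with all rows added up -0.89, -0.62 and -0.24, so that the sign for M2 minus CD4 depends on the rows.

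**Figure D4:**
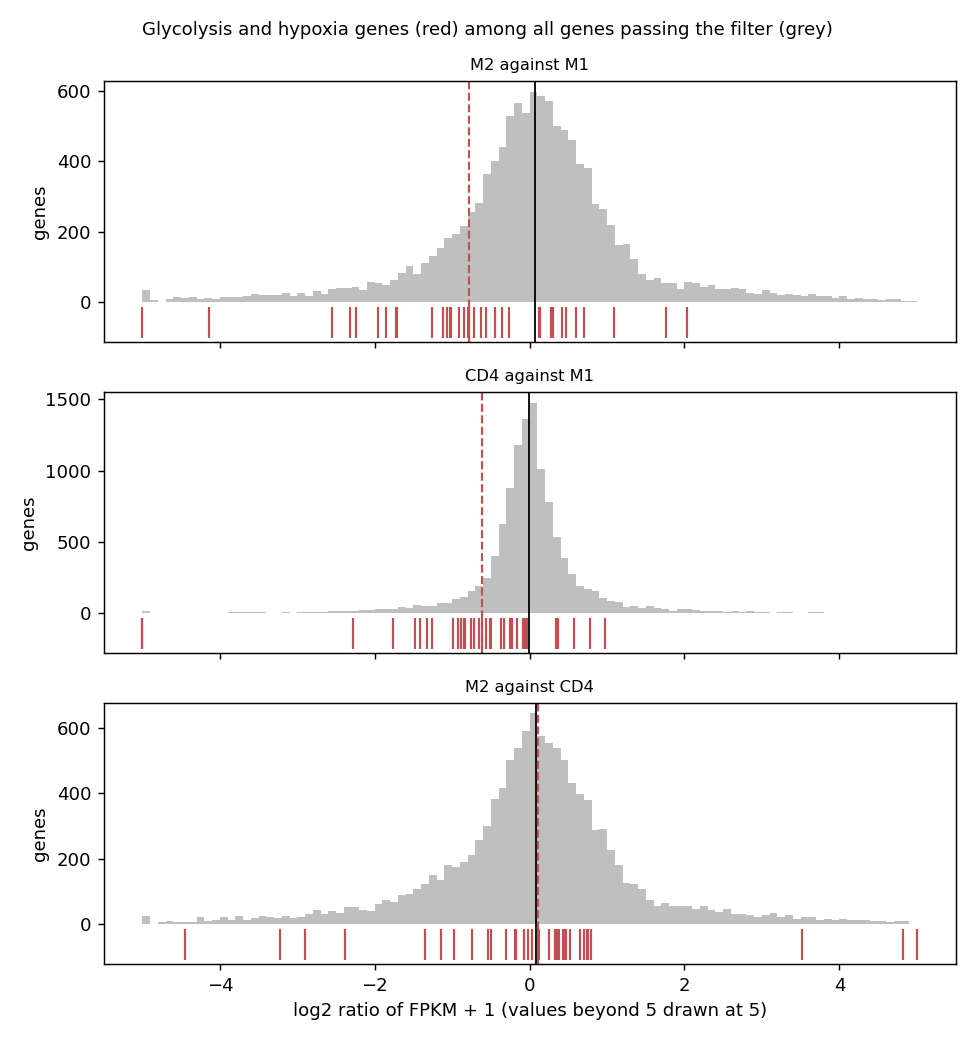
Distribution over the 11859 genes with a mean of at least 1 FPKM (grey, number of genes per 0.1 bin) of the log2 difference between libraries, with the 35 members as red ticks, genes listed at 0 included and values beyond 5 drawn at 5. Black lines are medians of all genes (0.07, -0.01 and 0.09 from top to bottom) and dashed red lines medians of the members (-0.78, -0.61 and 0.11).

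Genes that surround the pathway were taken from lists, whose small counts stand beside the shares of all genes given above: 14.4% lower and 15.5% higher for M2 against M1, 15.2% and 15.9% for M2 against CD4, and 6.43% and 6.14% for CD4 against M1. In the pentose phosphate pathway, which draws on glucose 6-phosphate to make NADPH and ribose, 6 of 7 genes passed the minimum, 2 of these were at least 2-fold lower in M2 than in M1 and than in CD4, and 0 were higher. G6pdx, its first and rate-setting enzyme, was 63.2 FPKM in M1, 17.1 in M2 and 58.8 in CD4, and Pgd, the next dehydrogenase, was 154, 46.5 and 111. Pgls, the lactonase between them, was 53.2, 33.4 and 50.6 FPKM, and Taldo1, the transaldolase, was 111, 66.8 and 75.7. Both dehydrogenases were thus low in M2 alone, while M1 and CD4 lay within 1.5-fold. Tkt, the 1 gene of the list that did not pass, was listed at 0 in all 3 libraries, and that 0 is not read as absence.

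Of 9 glycogen genes that passed, 1 was lower in M2 than in M1, 1 was lower in CD4 than in M1 and 0 differed 2-fold between M2 and CD4. The 1 gene was Pygl, the liver phosphorylase that releases glucose from glycogen, at 46.7 FPKM in M1, 2.64 in M2 and 4.92 in CD4. Ugp2, which makes UDP-glucose, was 50.5, 25.9 and 39.5 FPKM, and Gyg, the glycogen primer, was 37.1, 20.1 and 30.0. Pgm1, by its symbol in this annotation (ENSMUSG00000029171), was 16.1, 8.07 and 10.2 FPKM. Pgm2 (ENSMUSG00000025791) was more even, at 20.9, 20.9 and 17.7 FPKM. Among the 4 gluconeogenesis genes that passed (Fbp1, Pck1, Pck2, G6pc3), 0 differed 2-fold in any comparison. Pck2, the mitochondrial carboxykinase, was 14.8 FPKM in M1, 19.95 in M2 and 17.0 in CD4, with G6pc3 at 18.8, 11.6 and 15.9, Pck1 at 1.15, 1.57 and 2.33 and Fbp1 at 0.870, 0.587 and 2.05.

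At the entry of pyruvate to the mitochondrion, 11 of 12 genes passed, 2 were lower in M2 than in M1 and than in CD4, 1 was lower in CD4 than in M1 and 0 were higher. Pdk3, a kinase that blocks pyruvate dehydrogenase, was 13.2 FPKM in M1, 0.801 in M2 and 11.2 in CD4, whereas its relative Pdk2 was 3.33, 4.69 and 5.06. Brp44l, now named Mpc1, a subunit of the mitochondrial pyruvate carrier, was 19.1 FPKM in M1 and 4.99 in CD4 and was listed at 0 in M2, so that 1 of the 2 genes lower in M2 rests on a 0, and 2 of 11 is near the share of all genes. Dlat, a subunit of pyruvate dehydrogenase, was 15.7, 9.61 and 10.9 FPKM.

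Regulators of HIF were mostly even between the libraries. Of 9 that passed, 0 differed 2-fold between M2 and M1, 1 was lower in M2 than in CD4 and 2 were higher in CD4 than in M1. Arnt, the partner of HIF-1 alpha, was 18.3 FPKM in M1, 18.6 in M2 and 20.03 in CD4. Vhl, which recognises the hydroxylated factor, was 14.0, 9.43 and 10.2 FPKM, with its ligase partners Tceb1 at 32.6, 33.4 and 31.6 and Rbx1 at 7.86, 7.60 and 8.93. Tceb2, which pairs with Tceb1, was 54.8 FPKM in CD4 and listed at 0 in M1 and M2, and it is the 1 gene lower in M2 than in CD4. Epas1, which encodes HIF-2 alpha, was 1.21, 1.42 and 3.82 FPKM, and is with Tceb2 one of the 2 genes higher in CD4 than in M1. Hif1an, the asparagine hydroxylase, was 6.79, 10.9 and 7.28, Egln2, the hydroxylase PHD1, was 16.2, 20.002 and 19.1, and Cited2, which competes for the coactivator of HIF, was 23.1, 35.5 and 25.8. Hif3a and Arnt2 were under 0.31 FPKM throughout.

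Of 28 further hypoxia response genes, 23 passed. In M2, 5 were lower and 2 higher than in M1, and 5 were lower and 2 higher than in CD4, while CD4 had 3 lower and 1 higher than M1. Ddit4, a stress-induced inhibitor of mTOR, was 148 FPKM in M2 beside 36.2 in M1 and 36.4 in CD4. Hmox1, the heme oxygenase that many stresses induce, was 239 FPKM in M1, 38.7 in M2 and 201 in CD4. Pgf, a growth factor for vessels, was 5.46, 0.243 and 2.20 FPKM, and Trf, the iron carrier transferrin, was 189, 20.02 and 407. Their directions were mixed, as for the hypoxia response genes in the set.

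The alternative isozymes, among them forms of liver, muscle and testis, were low as a sum, but Adpgk, Pklr and Eno3 reached the levels of some members. Pklr was 7.78 FPKM in M1, 13.0 in M2 and 5.97 in CD4, and Eno3 was 5.68, 12.4 and 6.76. Of 20 listed, 19 were found and 10 passed the minimum. The 19 summed to 37.7 FPKM in M1, 66.98 in M2 and 66.8 in CD4, beside 2896, 1751 and 1692 FPKM over the 36 members. Of the 10 that passed, 4 were higher and 1 lower in M2 than in M1, and 1 was higher and 2 lower in M2 than in CD4. In CD4, 2 of these 10 were higher than in M1 and 0 lower. Adpgk, an ADP-dependent glucokinase, was 2.49 FPKM in M1, 15.2 in M2 and 18.7 in CD4. Slc2a8, an intracellular glucose carrier, was 3.06, 1.48 and 9.18 FPKM, Slc2a9, which also carries urate, was 2.24, 6.68 and 3.11, and Slc16a7, the carrier MCT2, was 4.29, 0.409 and 7.10.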

How the data were processed

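RNA of 3 sorted cell populations was sequenced as paired reads of 51 bases, 1 library each. Alignment by the authors was to MM9 (NCBIM37), with TopHat 1.4.1 running Bowtie 0.12.8, and transcripts came from Cufflinks 2.1.0, guided by Ensembl 67. The submitters' processing notes also name Cuffdiff. The deposited values are in FPKM, in 1 table of 135070 rows with 1 column for each library; 10182 rows have no identifier, and a dash in place of a value stands in 28490 rows of M1, 23458 of M2 and 28385 of CD4.

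Each column was taken as the sample whose title it carries. Of each of the 92519 identifiers, the first row with a value in all 3 columns was kept (90430), joined to the GENCODE annotation of NCBIM37 (88278) and summed per gene (36835). Genes with a mean of at least 1 FPKM over the 3 libraries (11859) entered the comparisons, on log2(FPKM + 1) with a pseudocount of 1 FPKM and a threshold of 2-fold. With 1 library per group there is no test. Members, lists and alternatives were chosen with earlier results of these data known. Every member is named with its levels. Of each other list, the up to 4 genes with the largest gap between libraries are named, with all HIF regulators and 5 cell type markers. Genes listed at 0 or past a line, and isozymes of a named gene, were named in addition where a count, sum, share or symbol needed it. Depth was the inverse of the lowest common step in FPKM multiplied by transcript length. Rows with an identifier but not kept were used in alternatives alone. The calculation of ratios, counts and depth was tested on simulated data. Promoter windows were RefSeq sequence of GRCm38.p6, and no coordinate was moved between builds. Scripts ran in Python 3.11.15 (matplotlib 3.10.9, pandas 2.3.3, numpy 2.4.6, scipy 1.17.1). One marker gene's own values are not reported here.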

Additional observations from a re-analysis of the deposited data

Results flagged for a closer look

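For 5 members, rows of the table that the gene levels leave out held at least 1 FPKM and as much as or more than the level used. This is over the limit of 3 fragments (0.0245 FPKM in M1, 0.025 in M2 and 0.0206 in CD4 for a transcript of 2000 bases). Such rows were left out because their identifier had an earlier complete row or because a library had a dash there. They held 2.70 FPKM of Slc2a3 in CD4, where the level used was 0, and 2.61 FPKM of Car9 in CD4, where it was also 0. For Pfkp in M2 they held 31.0 FPKM, beside 27.4 FPKM in the rows used. For Ldhb they held 10.1 FPKM in M1 and 4.72 FPKM in CD4, beside 1.78 and 4.44. For Bnip3 in M1 they held 28.4 FPKM, beside 20.2. Outlying samples could not be looked for with 1 library per group.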

How the results depend on the processing

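No paired analysis was possible because each group is 1 library, and no replicate could be left out. Over 11 alternative settings, of which 2 were chosen after seeing the data, the medians of the members kept their sign for M2 against M1 (-0.82 to -0.53) and CD4 against M1 (-0.64 to -0.54), while that for M2 against CD4 lay between -0.07 and 0.35. Scaling to equal coding totals moved the median of all genes to 0.32 for M2 against CD4 and 0.30 for M2 against M1, from 0.09 and 0.07. Of the 33 recounts of members 2-fold apart, 26 stayed within 1.5 times the first count. For M2 against CD4, 9 members became 16 at 1.5-fold and 4 among genes above 0 in both libraries. For M2 against M1, 17 became 11 at a mean of at least 10 FPKM. For CD4 against M1, 8 became 4 at a mean of at least 10 FPKM, 20 at 1.5-fold, and 5 among genes above 0 in both, with all rows summed or not. The share of all genes is not given at 1.5-fold, at 10 FPKM or with all rows summed. These recounts therefore cannot tell a move of the members from a move of all genes. With all rows summed, and also when genes at 0 were set aside, Car9 turned to -1.48 (M2 against CD4), Ldhb to -0.45 (M2 against M1) and Slc2a3 to 0.26 (CD4 against M1), since rows not used held their reads. Calls for single members were lost in 14 and gained in 9 of the recalculations. The leading share of Pfkfb4 became 20.4% (coding transcripts) and 47.2% (single highest transcript) in CD4 and 36.0% (coding) in M1, Hk3 40.3% in CD4 (single highest) and Hk2 38.1% in M1 (all rows). Depth limits levels to about 0.0206 to 0.025 FPKM (3 fragments on 2000 bases), under the lowest member level above 0 (0.288 FPKM), and this covers counting error only.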
